A study of Mus musculus with 6 samples.

Results

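The pannexins *Panx1*, *Panx2* and *Panx3* and the connexins *Gja1*, *Gja4*, *Gja5*, *Gja7* and *Gjb2* encode the subunits of large-pore channels and gap junctions. These 8 genes, of 31508 gene symbols on the array, were taken with all of their 18 probes by symbol. They were chosen by the measured difference of *Panx3* itself, which an earlier analysis of the same arrays had placed among the largest falls with parathyroid hormone (PTH), so the value of *Panx3* is given as a description and without a test. *Panx3* was 3.58-fold lower with PTH. None of the 6 probes tested for the other members passed the test, which is close to the 1.61% of all probes tested that passed. Those of *Gja4*, *Gja5* and *Gja7* lay near background, where a fall of that size could not be seen. The *ex vivo* model was cortical bone "tubes", the tibia and femur shafts of C57BL6 mice aged 3 months per the labels. Marrow had been flushed out and the surface cells removed with collagenase and trypsin, which left a preparation described as consisting mainly of osteocytes within their matrix. After a night in culture, the tubes of both groups were kept for a further 24 hours in medium with serum, either without PTH (control, 3 arrays) or with 250 nM of the PTH 1-34 peptide (3 arrays). RNA came from bones pooled from 4 to 5 mice per experiment, with about 10 bones in a preparation, and the labels do not say whether the numbered arrays came from separate preparations, so the p-values measure only the spread between these arrays.

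Connexins assemble as hexameric hemichannels in the plasma membrane, and the hemichannels of neighbouring cells dock to form gap junctions that pass ions and small metabolites. Pannexins share this membrane topology without sequence similarity to connexins and act mainly as single-membrane channels that release ATP to the outside of the cell. Osteocytes contact each other and the cells of the bone surface through gap junctions at the tips of their dendrites, in which the product of *Gja1* (Cx43) is the principal connexin. *Panx3* is known from osteoblasts and from prehypertrophic and hypertrophic chondrocytes, where its product has been described as an ATP release channel, as a calcium leak channel of the endoplasmic reticulum and as a gap junction channel.

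Median signal per array was between 111 and 129, and 34.2% to 38.4% of the 45281 probes were above background on an array, taken as a detection p under 0.05 against the negative controls. After background correction and quantile normalization, the log2 values of 16214 probes that exceeded background on 3 or more arrays were tested with limma. At an adjusted p under 0.05, 261 probes passed (1.61%), of which 161 (0.993% of those tested) were lower and 100 (0.617%) higher with PTH, so that 38.3% of the calls were higher. Under median scaling 55.8% of the calls were higher. Each gene was also represented by its brightest probe, which gave 11972 genes with a median difference of 0.01 and the middle 50% between -0.16 and 0.17 (log2), of which 1.73% passed, 1.04% as lower and 0.685% as higher. Of the osteocyte markers, *Dmp1*, *Mepe*, *Phex* and *Sost* were above background on all control arrays and *Fgf23* was above background on no array. Markers of other cells were also above background on all 6 arrays, with 9 of 9 neutrophil genes, 7 of 8 macrophage genes and 5 of 8 osteoclast genes. Precision is limited by the 3 arrays of a group, for which the smallest two-sided p of an exact permutation test on 1 probe is 0.1.

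*Panx3*, represented by 1 probe (ILMN_2721052), was above background on all 6 arrays. Before any correction its signal was 387, 472 and 434 in the control tubes, and in the PTH-treated tubes it was 168, 200 and 233. After normalization the control arrays were at 8.51, 8.55 and 8.42 and the PTH arrays at 6.59, 6.78 and 6.59 on the log2 scale. The groups lay far apart, with the highest PTH array below the lowest control array, and the arrays of each group stayed close together. The mean was 8.49 ± 0.07 in control tubes and 6.65 ± 0.11 in PTH-treated tubes (SD, n = 3), a log2 difference of -1.84 (SE 0.12). This placed *Panx3* at rank 5 from the lowest difference of the 11972 genes, between *Hbb-b1* at -1.89 and *Msr2* at -1.77, with 0.0418% of genes at or below it. The size of the fall changed with the processing. It was 2.33-fold without background correction, 2.93-fold with an offset of 50 and, under another scaling of the arrays by their medians, 3.30-fold. In bulk RNA of this kind, fewer cells of a type and less RNA per cell cannot be told apart.

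**Figure D1:**
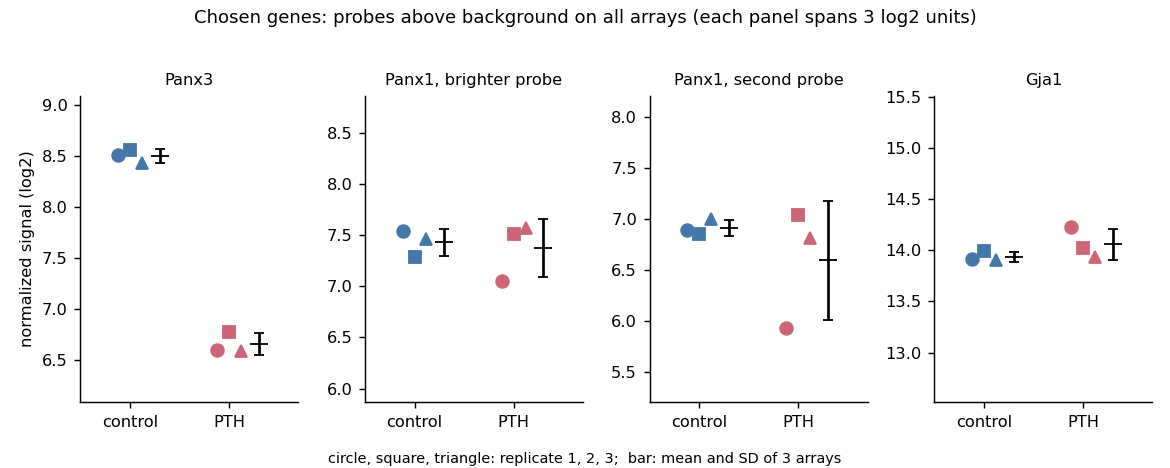
Normalized signal (log2, vertical axis, 3 units in each panel) of the 4 probes of the chosen genes above background on all 6 arrays, with 1 point per array and bars for mean and SD of 3 arrays. The *Panx3* arrays form 2 separate groups, from 8.42 to 8.55 in control and from 6.59 to 6.78 with PTH, and the *Panx1* and *Gja1* points overlap between groups.

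The 5 genes whose array profile lay nearest to that of *Panx3* were sought by the root mean square difference of mean-centred log2 signals over the 6 arrays, which describes likeness in these arrays and is dominated by the size of the PTH difference. They were *Ibsp*, the bone matrix protein bone sialoprotein, at 0.107, the globin genes *Hba-a1* at 0.107 and *Hbb-b1* at 0.109, *Pace4* (now *Pcsk6*), a proprotein convertase, at 0.124, and *Msr2* (now *Fcrls*), a receptor-like gene of the Fc family, at 0.156. The log2 level of *Ibsp* was 12.52 ± 0.03 in control and 10.52 ± 0.04 with PTH. *Pace4* was at 9.78 ± 0.09 in control and 8.10 ± 0.22 with PTH (SD, n = 3). All 5 are among the genes that were lower with PTH, since the measure takes in the group difference.

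**Figure D2:**
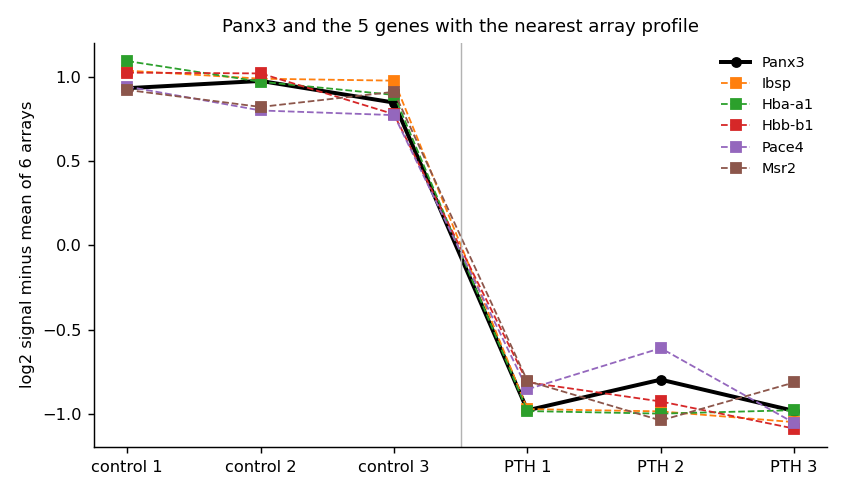
Log2 signal minus the mean of the 6 arrays (vertical axis) for *Panx3* (black line) and the 5 genes with the nearest profile, on each control and PTH array (horizontal axis). All 6 genes lie above their mean on the 3 control arrays and below it on the 3 PTH arrays, and lines only join the values of a gene.

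Markers of osteoblasts and chondrocytes, in which *Panx3* is known, and of osteocytes were mostly lower with PTH on the same arrays. The mean was lower for 7 of 9 osteoblast, 4 of 5 osteocyte and 4 of 6 chondrocyte genes tested, and higher for 2, 1 and 2. At an unadjusted p under 0.05 (limma), 6, 4 and 3 were lower and 0, 1 and 1 higher, against 14.9% of all genes in either direction. Both chondrocyte counts of lower genes include *Acan*, whose test is biased towards a fall, as described below. All calls as lower in the marker lists below are set against the 1.04% of all genes that passed as lower. Of the osteoblast list, 9 of the 11 genes matched on the array were tested and 2 passed as lower, *Ibsp* (adjusted p = 0.000747, limma) and the osteoblast transcription factor *Sp7* (log2 difference -0.81, SE 0.13, adjusted p = 0.0259, limma). The mean log2 signal of the 9 genes ran from 11.07 to 11.13 in control and from 10.54 to 10.58 with PTH, and *Runx2* was above background on no array. Of the osteocyte list, 5 of 6 genes were tested and 1 passed as lower, *Mepe* at -1.02 (SE 0.13, adjusted p = 0.0128, limma). The lowest difference of the list, -1.21, did not pass. *Pdpn* (listed as *Gp38*), a marker of early osteocytes, was in the other direction at 0.70 (SE 0.14, adjusted p = 0.0560, limma), with its PTH arrays above the control arrays. The mean of the 5 genes ran from 9.14 to 9.60 in control and from 8.39 to 8.88 with PTH. Of the 12 chondrocyte genes 6 were tested, with a mean of 6.47 to 6.48 in control and 5.99 to 6.27 with PTH, and *Matn1* and *Matn3* were above background on no array. *Acan* (listed as *Agc1*), the cartilage proteoglycan aggrecan, was above background on the 3 control arrays and on no PTH array, at least 1.59-fold lower with PTH (adjusted p = 0.0114, limma). *Acan* met the detection filter only through its control arrays, so its test is biased towards a fall and nothing is concluded from it. *Col10a1*, the collagen of hypertrophic cartilage, was at -0.90 (SE 0.21, adjusted p = 0.0918, limma) and did not pass, with its PTH arrays below the control arrays. The means of 2 of the 6 genes were higher with PTH, among them *Sox9*, the cartilage transcription factor, at 0.32 (SE 0.11, adjusted p = 0.233, limma) with its PTH arrays above the control arrays. This is the brightest *Sox9* probe, and the mean of all tested *Sox9* probes gave 0.13 (SE 0.19, adjusted p = 0.807, limma). *Col2a1* was above background on all 6 arrays, at 7.69 ± 0.03 in control and 7.22 ± 0.20 with PTH, although the methods describe the tubes as free of growth plate by histology. Among marrow cells, the 2 red cell genes tested passed as lower (median -1.93), as did 6 of 9 neutrophil genes (median -0.76, mean 11.42 to 11.47 in control and 10.67 to 10.74 with PTH). With the replicate number as a block the calls of *Sp7* (adjusted p = 0.0765), *Mepe* (adjusted p = 0.0508) and *Acan* (adjusted p = 0.0587) were lost, and those of *Sp7* and *Mepe* also under median scaling (adjusted p = 0.534 and 0.167, limma in each). Under median scaling the differences of *Sp7* and *Mepe* were -0.65 and -0.86. The fit gave both the same SE of 0.29, as it did every gene named singly. With 1 array left out, the call of *Sp7* was lost for each of the 6 arrays, that of *Mepe* for 5 and that of *Acan* for 4, with adjusted p up to 0.109, 0.0657 and 0.0577. The part of these cells in the value of *Panx3* was not tested.

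Neither of the other pannexins gave a call. *Panx1*, the widely expressed ATP release channel, had 3 probes, of which 2 were above background on all 6 arrays and the third (ILMN_2501855) on none. The brighter probe (ILMN_2946088) was at 7.55, 7.29 and 7.46 in control and at 7.05, 7.51 and 7.58 with PTH (log2). The groups overlapped, with the first PTH array lowest and the other PTH arrays within or above the range of control. The difference was -0.05 (SE 0.17, 95% interval, not adjusted for the number of probes, -0.45 to 0.34, adjusted p = 0.923, limma), and it was 0.05 under median scaling. The second probe (ILMN_2647544) was at 6.90, 6.85 and 7.01 in control and at 5.93, 7.04 and 6.82 with PTH, a difference of -0.32 (SE 0.27, 95% interval -0.94 to 0.30, adjusted p = 0.650, limma). Without the first PTH array this difference was 0.01. *Panx2*, a pannexin best known from brain, had 1 probe, which was above background on no array with a signal between 102 and 117. Within an array, log2 *Panx3* minus log2 *Panx1* (brighter probe) was 0.96, 1.26 and 0.96 in control and -0.46, -0.73 and -0.99 with PTH. The signals of different probes are not comparable as levels, and only the change of this difference by -1.79 can be read, as an unequal change of the 2 probes.

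*Gja1*, the connexin of osteocyte and osteoblast gap junctions, was bright on all arrays. Its uncorrected signal was 12612, 16351 and 15309 in control and 16722, 16890 and 21238 with PTH, which did not overlap. After normalization the values were 13.92, 13.99 and 13.91 in control and 14.23, 14.02 and 13.93 with PTH (log2), and the groups overlapped. The means were 13.94 ± 0.05 and 14.06 ± 0.15 (SD, n = 3). The difference was 0.12 (SE 0.13, 95% interval -0.17 to 0.42, adjusted p = 0.728, limma), or 1.09-fold higher with PTH. Under median scaling, which moved the median of all genes by 0.12, the difference of *Gja1* was 0.26, or 0.15 relative to that shift.

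The remaining connexins lay near background. *Gja4* (Cx37) and *Gja5* (Cx40) are known mainly from blood vessels and *Gja7*, the older name of *Gjc1* (Cx45), from vessels, heart and bone. *Gja4* had 1 probe (ILMN_2737704), above background on 3 control arrays and 1 PTH array, at 5.31, 5.27 and 5.52 in control and 5.12, 4.65 and 5.75 with PTH (log2). Its PTH arrays lay on both sides of the control arrays. The difference was -0.19 (SE 0.26, 95% interval -0.79 to 0.41, adjusted p = 0.797, limma), and it was 0.07 without the second PTH array. *Gja5* had 5 probes, and the 1 tested (ILMN_2691641) was above background on 3 control arrays and 1 PTH array, at 5.17, 6.06 and 5.16 in control and 5.30, 4.78 and 4.64 with PTH. Its second control array stood above the other arrays. The difference was -0.56 (SE 0.28, 95% interval -1.21 to 0.09, adjusted p = 0.420, limma), and it was -0.26 without that array. A second *Gja5* probe (ILMN_2908133) was above background on 2 control arrays and no PTH array, and the other 3 on none. The 12 endothelial markers, all tested, had a median difference of -0.20 with none passing (limma). At an unadjusted p under 0.05 (limma), 0 were higher and 1 lower, against 14.9% of all genes in either direction. The mean of these markers ran from 7.65 to 7.83 in control and from 7.51 to 7.62 with PTH.

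*Gja7* had 3 probes, of which 1 (ILMN_2752275) was tested and the other 2 were above background on no array. It was above background on 2 control arrays and 3 PTH arrays, at 5.12, 5.52 and 5.58 in control and 5.19, 5.46 and 6.29 with PTH (log2). The groups overlapped and the third PTH array was highest. The difference was 0.24 (SE 0.28, 95% interval -0.41 to 0.89, adjusted p = 0.756, limma), and it was -0.08 without the third PTH array. *Gjb2* (Cx26), a connexin best known from the inner ear and the skin, had 3 probes, none tested, of which 1 (ILMN_2999627) was above background on 1 control array. In all, 4 of the 18 member probes exceeded background throughout, 5 did so on some arrays and 9 on none, and the 11 not tested had signals between 89.9 and 140. Of the 6 probes tested for members other than *Panx3*, 0 passed with limma, against 1.61% of all probes, and 0 reached an unadjusted p under 0.05, against 14.9% of genes. The groups overlapped on all 6 of these probes, while they did not overlap for 21.9% of genes tested. The intervals of the dim connexins are wide, and differences of up to 1.21 remain within them.

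**Figure D3:**
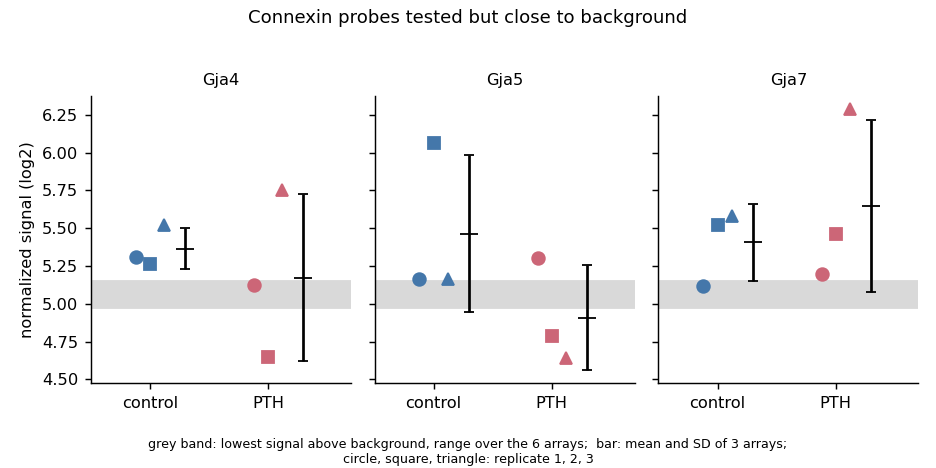
Normalized signal (log2, vertical axis) of the 3 connexin probes of the chosen genes that were tested but lay near background, with 1 point per array, bars for mean and SD of 3 arrays, and a grey band for the lowest signal above background over the 6 arrays (4.97 to 5.15). The groups overlap in all 3 panels, and single arrays such as the second control array of *Gja5* at 6.06 and the third PTH array of *Gja7* at 6.29 stand off from the rest.

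Further connexin symbols on the array were followed as well. Their 14 probes that were not tested, of 11 symbols, had signals between 83.2 and 150.1, with 9 above background on no array and 5 on 1 array.

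**Figure D4:**
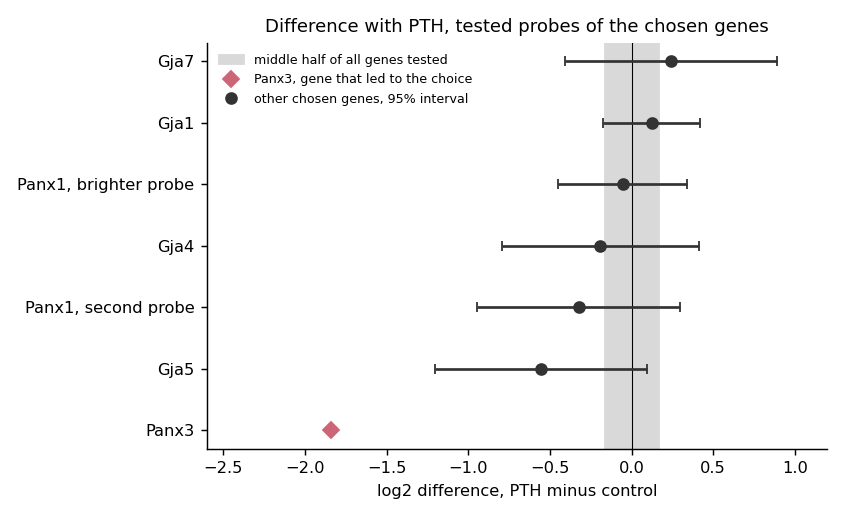
Log2 difference, PTH minus control (horizontal axis), of the 7 tested probes of the chosen genes, with 95% intervals from limma and a grey band for the middle 50% of all genes tested (-0.16 to 0.17). *Panx3*, shown without an interval because it led to the choice of the genes, is at -1.84, and the intervals of the other probes all hold 0.

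Proteins that anchor, traffic or modify gap junctions were followed as a list of 26 genes, of which 24 were tested. None passed at an adjusted p under 0.05 (limma). At an unadjusted p under 0.05 (limma), 6 were higher and 1 lower, against 14.9% of all genes in either direction. The means were higher with PTH for 12 genes and lower for 12, with a median difference of 0.00. All PTH arrays lay above all control arrays for 7 of the 24 genes, against 11.1% of all genes, and below them for 1, against 10.8%. *Tjp1* (ZO-1), the scaffold that binds the tail of the *Gja1* product, was at 7.79, 7.86 and 7.85 in control and at 8.23, 8.26 and 8.50 with PTH (log2). These groups were separate, with a difference of 0.50 (SE 0.13, adjusted p = 0.123, limma), and the adjusted p was 0.0251 without background correction. The largest difference of the list was that of *Cav1*, the caveolar coat protein, at 0.67 (SE 0.14, adjusted p = 0.0749, limma). *Cav1* lies outside the rule for named genes and was singled out after its value was seen. The lowest was *Nedd4*, a ubiquitin ligase of *Gja1*, at -0.38 (SE 0.12, adjusted p = 0.198, limma), also named after its value was seen. Of other large-pore channels, 5 of the 8 genes matched were tested and none passed (limma), with a median difference of 0.21. At an unadjusted p under 0.05 (limma), 1 was higher and 0 lower, against the same 14.9%.

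ATP and ADP released from bone cells act on purinergic receptors, of which 8 of 19 genes were tested. *P2ry13*, a receptor for ADP, fell and was the 1 gene of the list that passed, against the 1.04% of all genes that passed as lower. It was at 7.20, 7.16 and 6.98 in control and at 6.48, 6.35 and 6.39 with PTH (log2), with no overlap, and at 7.11 ± 0.12 against 6.41 ± 0.06 (SD, n = 3). The difference was -0.71 (SE 0.12, adjusted p = 0.0368, limma). The call was lost under median scaling (adjusted p = 0.625), with the replicate number as a block (adjusted p = 0.0910), and when any 1 array was left out (adjusted p from 0.0763 to 0.148, limma in each). Under median scaling the difference was -0.61 with an SE of 0.29. The fit gave all genes named singly that same SE, so this p-value does not measure the spread of the *P2ry13* probe. *P2rx7*, the ATP-gated channel that is often coupled to pannexins, was above background on 2 control arrays and 1 PTH array, with a difference of -0.13 (SE 0.14, adjusted p = 0.749, limma). *P2rx4* was above background throughout on its brightest probe, at 7.29 ± 0.22 in control and 7.21 ± 0.17 with PTH (adjusted p = 0.879, limma). The mean of all tested *P2rx4* probes gave a difference of -0.28 (SE 0.12, adjusted p = 0.334, limma). *P2ry2* was not above background on enough arrays to be tested, and 8 receptors, among them *Adora1*, *Adora2a* and *Adora3*, were above background on no array.

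Extracellular nucleotides are broken down by ectoenzymes that also set the level of pyrophosphate, an inhibitor of mineral formation. Of 13 such genes matched, 8 were tested and none passed (limma). At an unadjusted p under 0.05 (limma), 0 were higher and 2 lower, against 14.9% of all genes in either direction. The mean was higher for 1 gene and lower for 7, with a median difference of -0.16 against 0.01 over all genes. *Nt5e* (CD73), which makes adenosine from AMP, was at 10.31 ± 0.14 in control and 10.58 ± 0.04 with PTH, a difference of 0.27 (SE 0.13, adjusted p = 0.395, limma) with the PTH arrays above the control arrays. *Enpp1*, which makes pyrophosphate from ATP, was at 10.20 in both groups, with an SD of 0.20 in control and 0.17 with PTH. *Ank*, the exporter of ATP and pyrophosphate, was at 12.38 ± 0.06 in control and 12.16 ± 0.08 with PTH, a difference of -0.22 (SE 0.12, adjusted p = 0.442, limma). *Entpd1* (CD39) was above background on no array. Of 14 genes of calcium stores and calcium entry, 10 were tested and none passed (limma), with a median difference of -0.12. At an unadjusted p under 0.05 (limma), 0 were higher and 1 lower, against the same 14.9%. The receptors for inositol trisphosphate *Itpr1* and *Itpr2*, which release calcium from the endoplasmic reticulum, had differences of -0.09 (SE 0.12, adjusted p = 0.783) and -0.02 (SE 0.14, adjusted p = 0.965, limma in both), and both were above 0 under median scaling.

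**Figure D5:**
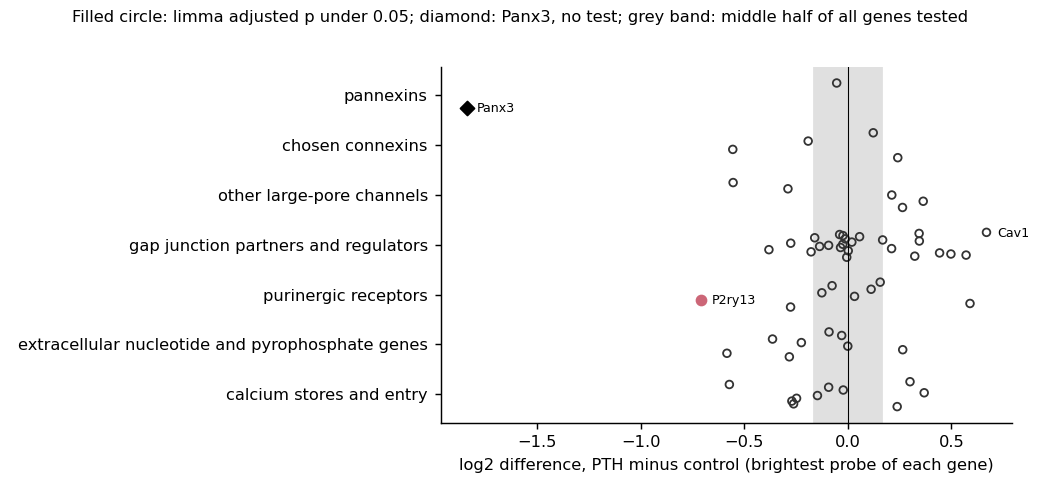
Log2 difference, PTH minus control (horizontal axis), of the brightest probe of each tested gene in 7 lists of channels, partners, receptors and enzymes, with a grey band for the middle 50% of all genes tested. *P2ry13* at -0.71 is the 1 filled circle (limma adjusted p under 0.05), *Panx3* at -1.84 is drawn as a diamond without a test, and the other genes lie between -0.58 and 0.67.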

How the data were processed

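The deposited values are linear intensity readings of 45281 probes of an Illumina mouse bead array, without normalization. The authors deposited with each a detection p-value, computed by GenomeStudio (named in the submitters' processing notes). The paper's methods describe quantile normalization and a differential score in that program, which were not used here. Signals were background corrected through the detection p-values, given an offset of 16, quantile normalized and taken to log2 (neqc, limma 3.58.1, R 4.3.3). Probes with a detection p under 0.05 on at least 3 of 6 arrays were tested (lmFit, eBayes, Benjamini-Hochberg over all 16214), without a replicate block. Lists were matched by symbol or older name (RefSeq table of assembly GRCm38.p6). The genome build of the probes is not given in the sources used here.

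The members, lists and rules were chosen with earlier results of these data known. Named are all member probes, other connexins tested (not reported here), genes of each list that passed, 10 fixed genes (*Tjp1*, *P2rx7*, *P2rx4*, *P2ry2*, *Entpd1*, *Nt5e*, *Enpp1*, *Ank*, *Itpr1*, *Itpr2*), the 5 profiles nearest to *Panx3*, and markers beside them. The other marker lists gave no call among the genes tested for smooth muscle and pericytes (6), skeletal muscle (2) or macrophages (7). Of 5 osteoclast genes tested, 2 passed as higher with PTH, against 0.685% of all genes. All PTH arrays lay above all control arrays for all 5, against 11.1% of all genes. Alternatives were other background corrections, scalings, filters and probe rules, the replicate block, and arrays left out. The code was tested on simulated data.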

Additional observations from a re-analysis of the deposited data

How the results depend on the processing

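*Panx3* was given no test, and none of the other members passed under any of the alternatives run. The number of probes that passed, 261, was 723 without background correction, 502 with an offset of 50, 138 under median scaling, 422 with a detection p under 0.01 on all arrays, and between 71 and 108 with 1 array left out. Under median scaling all genes named singly had the same SE, 0.29, so their p-values there do not measure the spread of each probe. With the replicate number as a block 64 probes passed. Of the genes named singly with a call, the block ended those of *P2ry13*, *Sp7*, *Mepe* and *Acan* and kept those of *Ibsp*, *Hba-a1*, *Hbb-b1*, *Pace4* and *Msr2*. The deviations of same-numbered arrays from their group means correlated at 0.067, 0.064 and 0.27. Between the groups, arrays numbered 1 and 2 correlated at 0.070 and 0.073, and an array numbered 3 with these at -0.14 to -0.13. Probes above background also followed the number, with 15758, 16451 and 17369 in control and 15504, 16352 and 17374 with PTH. The labels do not say what the numbers mark, and the main fit was made without a block. In an alternative chosen after seeing the data, with both arrays numbered 3 left out, 0 probes passed with limma and 2167 had an unadjusted p under 0.05. There *P2ry13* was at -0.77 (adjusted p = 0.188, limma) and *Panx3* at -1.85. The log2 difference of *Panx3* was -1.22 without background correction, -1.55 with an offset of 50, -1.72 under median scaling and between -1.90 and -1.81 with 1 array left out. The causes were not tested.

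Among 29 genes or probes named singly, 205 recomputed values kept direction and call, 7 turned sign, 7 gained a call (*Tjp1*, *Cav1* and *Pdpn*) and 16 lost one, leaving aside the fits with 1 array left out. The changed detection filters and the block leave each difference as in the main fit, so no sign could turn there. Most of these genes also had no call to lose, so the count of 205 is no measure of robustness. Median scaling turned the sign for *Panx1* (ILMN_2946088, 0.052), *P2rx4* (0.031), *Enpp1* (0.14), *Itpr1* (0.069) and *Itpr2* (0.085), none past the threshold, and each of these values is smaller than or close to the shift of all genes of 0.12. The mean of all probes gave *Enpp1* 0.19, and without both arrays numbered 3 *Itpr2* was at 0.070. With 1 array left out, the lowest and highest values were -0.48 and 0.072 for *Gja4*, -0.079 and 0.47 for *Gja7*, -0.55 and 0.0090 for *Panx1* (ILMN_2647544), -0.15 and 0.11 for *Panx1* (ILMN_2946088), -0.17 and 0.046 for *P2rx4*, -0.11 and 0.084 for *Enpp1* and -0.14 and 0.053 for *Itpr2*. A slide block was not run because the slide of an array is not named in the sources used here. Signals near background limit *Gja4*, *Gja5*, *Gja7* and *Gjb2*, and 9 of 18 member probes gave no signal above background.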
